A study of Homo sapiens and Mus musculus with 6 samples.

Results

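The genes described here are 8 dual specificity phosphatase genes, DUSP1, DUSP2, DUSP4, DUSP5, DUSP6, DUSP10, DUSP16 and DUSP22, followed through the promoter contacts of a human and a mouse cell type. A contact was kept when both of its restriction fragments lay on the same chromosome (a cis-chromosomal call) and either fragment carried the symbol of a member. A contact listed from both ends was counted once, as a pair of fragments. By this rule 7 of the genes had pairs in GM12878 and 6 had pairs in mESCs, among 30189 genes with a cis pair in either list. They held 259 of 88380 cis pairs in GM12878 and 57 of 93599 in mESCs. The members were chosen by their measured calls in these same lists (how many pairs they had), so their numbers of pairs, scores and distances are given as a description and carry no test.

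Promoter Capture Hi-C was carried out in GM12878, an Epstein-Barr virus-transformed human lymphoblastoid line labelled as a B-lymphocyte (3 biological replicates), and in J1 mESCs, mouse embryonic stem cells of strain 129S4/SvJae grown with serum on irradiated embryonic fibroblast feeders that were removed at harvest (2 biological replicates). Neither cell type received a treatment other than formaldehyde fixation. In this assay ligated HindIII fragments are enriched for those that carry promoters (the baits), and what is joined to a bait is its other end, which may be another bait (a bait-to-bait pair) or an unbaited fragment. A pre-capture Hi-C dataset of mESCs, called in 25-kb bins, is the only readout that the choice of genes did not use. Each capture list came from all replicates of a cell type together, which leaves no estimate of the spread between replicates, and species, cell type, capture design and sequencing depth cannot be told apart in any comparison of GM12878 with mESCs. The lists hold no expression values, so the labelled cell types could not be checked against marker genes, and the depth of each library is not in the files used here. The reads of a pair are the authors' joint count, in which the replicates were weighted by size factors, combined and rounded.

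Dual specificity phosphatases remove phosphate from both tyrosine and threonine or serine residues. Many of them act on the activation loop of MAP kinases and are therefore called MAP kinase phosphatases. Several are transcribed in response to the pathway that they switch off, which makes them feedback inhibitors of ERK, JNK and p38 signalling, and in lymphocytes they limit the response to antigen and growth signals. DUSP1, DUSP2, DUSP4 and DUSP5 encode inducible nuclear enzymes, DUSP6 a cytoplasmic enzyme that prefers ERK, and DUSP10 and DUSP16 enzymes that prefer JNK and p38. DUSP22 encodes a small atypical member without the MAP kinase-binding domain.

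The genes differed widely in how many fragments they were joined to. In GM12878, DUSP5 had 111 pairs, DUSP22 had 52, DUSP2 had 47, DUSP4 had 25, DUSP16 had 14, DUSP10 had 6 and DUSP1 had 4, and DUSP6 had none. In mESCs, Dusp4 had 22 pairs, Dusp5 had 15, Dusp2 had 8, Dusp1 had 7, Dusp16 had 3 and Dusp6 had 2, and neither Dusp10 nor Dusp22 was listed. An unlisted gene may have had no capture probe or no call, and these cannot be told apart here. At least 10 pairs were held by 5 of the 7 members listed in GM12878, beside 23.5% of all genes listed there. In mESCs they were held by 2 of the 6 listed members, beside 22.6%. The median over all listed genes was 4 pairs in both cell types. Only 7 of the 21909 genes listed in GM12878, DUSP5 excluded, had as many pairs as DUSP5, and its bait ranked 2 among 16608 bait fragments.

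**Figure D1:**
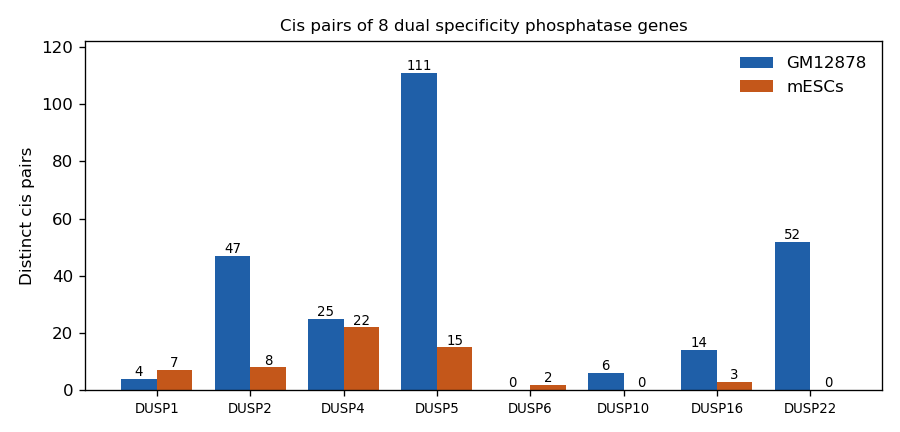
Number of distinct cis pairs (vertical axis) of each of the 8 genes in GM12878 (blue) and mESCs (orange). DUSP5 in GM12878 stood highest with 111 pairs, and a bar at 0 marks a gene with no listed pair.

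For genes with a pair in both lists and at least 5 in either, symbols were matched between the species. DUSP5 had 7.40 times as many pairs in GM12878 as in mESCs, DUSP2 had 5.88 times as many and DUSP16 had 4.67 times as many. DUSP4 was close to even, at 1.14 times, and DUSP1 had 0.571 times as many. Thus 3 of 5 matched members had at least 2-fold more pairs in GM12878, beside 34.2% of the 6253 matched genes, and none had at least 2-fold more in mESCs, beside 35.6%. The ratio of DUSP5 was reached by 505 of the 6253 genes, or 8.08%, and that of DUSP2 by 11.5%. The median ratio over all matched genes was 1.

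DUSP5, which encodes a nuclear phosphatase selective for ERK, held the large contact domain of the group. Its bait in GM12878 was chr10:112255134-112262944 (hg19), a fragment of 7.81 kb that carries the start of the gene (chr10:112257665-112271291, plus strand). Its pairs reached from 111666499 to 112721310, a span of 1055 kb, with a median distance of 155 kb and a longest distance of 590 kb. The 6 pairs of DUSP10 spanned 1102 kb in GM12878, so width alone did not set DUSP5 apart. Of the 111 pairs, 72 lay upstream of the gene and 39 downstream. Reads per pair ran from 8 to 64 with a median of 21. The CHiCAGO score, which rises with the evidence that a pair exceeds its distance-dependent background, ran from 5.02 to 55.5 with a median of 9.48. The list stops at a score of 5, so the weakest pairs of DUSP5, both at 5.02, lay just inside it, and fragments below it carry no value here.

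Close to the gene the pairs formed a nearly unbroken block. Within 200 kb upstream of the bait, 45 of 48 HindIII fragments were paired with DUSP5, and in the 100 kb downstream 23 of 32 were. A run of 41 consecutive fragments, from 112055338 to 112204707, was paired without a gap, over 149 kb. Fragments shorter than the shortest unbaited fragment in the list, 156 bases, were left out of these counts. Fragments directly beside a bait were kept in them, although no call of either list (0 of 92641 and 0 of 101262 cis calls) joined adjacent fragments. From 250 kb upstream to 120 kb downstream lay 80 of the 111 pairs and 2366 of their 2698 joint reads, or 87.7%. This stretch also held 51 of the 53 pairs with a score of at least 10. Beyond it the pairs thinned out. Between 600 and 350 kb upstream 13 of 70 fragments were paired, on 8 to 11 reads each, and between 150 and 500 kb downstream 14 of 119 were, on 8 to 15 reads each.

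**Figure D2:**
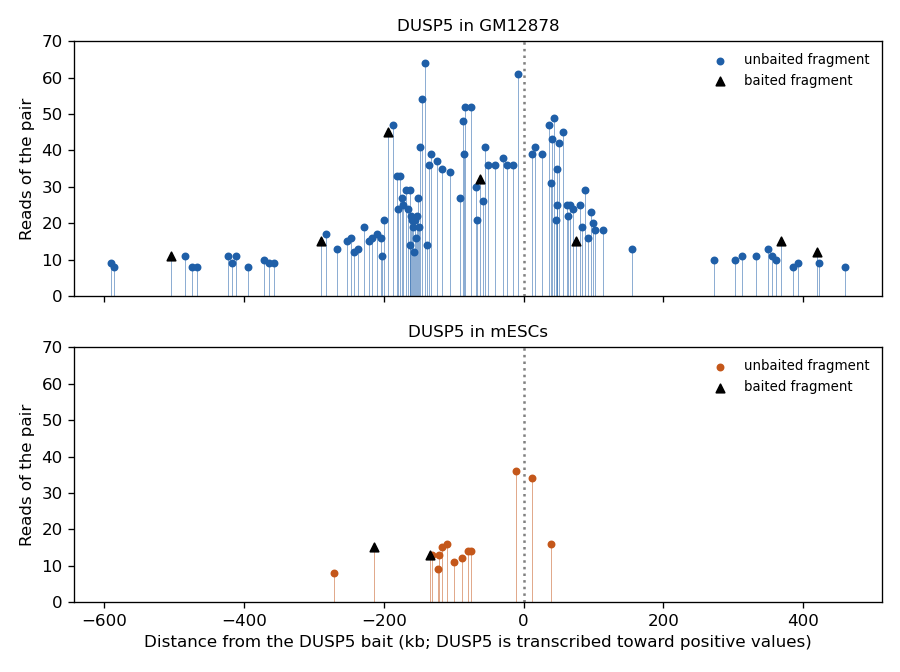
Reads of each DUSP5 pair (vertical axis) against the distance of the other fragment from the bait in kb (horizontal axis), in GM12878 (upper panel) and mESCs (lower panel). Circles are unbaited fragments and black triangles baited fragments, and in GM12878 the highest point is the 64-read fragment 141 kb upstream.

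The block had several crests, all in DNA without protein-coding genes. The strongest fragment, chr10:112115824-112121155, lay 141 kb upstream on 64 reads with a score of 55.5. Its neighbour at 112111868-112115823 followed with 54 reads and a score of 46.9. A further crest lay beside the SMNDC1 promoter, where 112067986-112077376 had 47 reads and a score of 45.02. Closer to the gene, 112174431-112175972 had 52 reads and a score of 33.2, and 112175973-112190479 had 52 reads and a score of 30.8. The other 5 of the 10 strongest unbaited fragments had scores from 26.4 to 32.8 on 33 to 48 reads. These 10 fragments all lay upstream of DUSP5, between 75.8 and 186 kb from its bait. On the downstream side the highest score was 21.0, at 112310470-112320679, on 45 reads.

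These reads can be set beside all cis pairs of the same distance in GM12878. Between 100 and 200 kb the 32 DUSP5 pairs had a median of 26 reads and a median score of 17.9, where all 23070 pairs had 16 reads and 6.74. Between 50 and 100 kb the medians were 26.5 reads and 11.2 for DUSP5, and 22 reads and 6.78 for all pairs. Between 200 and 400 kb they were 12.5 reads and 7.40 beside 12 reads and 6.50, and beyond 400 kb they were 9 reads and 6.45 beside 9 reads and 6.25. The excess of DUSP5 over other promoters was thus widest between 100 and 200 kb.

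Of the 104 unbaited fragments joined to DUSP5, 61 (58.7%) lay outside protein-coding genes, 27 overlapped an exon of such a gene and 16 lay within introns only. Among all unbaited fragments of the GM12878 list 35.3% lay outside protein-coding genes. The fragments that touched genes lay in XPNPEP1, ADD3, MXI1 and SMNDC1 upstream, in DUSP5 itself, and in SMC3, RBM20, PDCD4 and SHOC2 downstream.

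Bait-to-bait pairs joined DUSP5 to 7 other promoter fragments in GM12878. SMNDC1, a survival motor neuron-related splicing factor, was 195 kb upstream on 45 reads, with a score of 29.5 from the DUSP5 bait and 20.3 from its own. The noncoding AL355512.1 was 62.2 kb upstream on 32 reads, with a score of 6.92 from the DUSP5 bait and 16.0 from its own. MXI1, which encodes an antagonist of MYC, shares its bait with RP11-549L6.3 and lay 290 kb upstream on 15 reads (scores of 7 and 5.71). ADD3, which encodes the cytoskeletal protein gamma-adducin, was 504 kb upstream on 11 reads (6.42 and 7.79). These 4 pairs were called from both ends. The other 3 were called from a single end, namely a bait in SMC3 named for the small RNA snoU13 (75.3 kb downstream, 15 reads, 5.55), RP11-313D6.3 (368 kb, 15 reads, 6.63) and the bait shared by BBIP1 and SHOC2 (420 kb, 12 reads, 5.51). SHOC2 encodes a scaffold of the RAS to RAF step upstream of ERK.

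A further 5 baits lay within the DUSP5 span and were not joined to DUSP5. They carried SMC3, a subunit of cohesin, RBM20, PDCD4, XPNPEP1 and RP11-451M19.3. Of the fragments that they contacted most were also paired with DUSP5, namely all 8 of SMC3, all 5 of XPNPEP1, all 4 of PDCD4, both of RP11-451M19.3 and 3 of 4 of RBM20. SMNDC1 had the most pairs of the baits in the span apart from DUSP5, and 31 of its 43 other fragments (72.1%) were paired with DUSP5. The overlap made up 27.9% of the fragments of DUSP5. Of all fragments within 200 kb of the DUSP5 bait, 71 of 99 (71.7%) were paired with DUSP5. Whether the sharing of any of these baits exceeds that share was not tested. At the far end of the span ADD3 shared none of its 3 other fragments with DUSP5.

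In mESCs the bait of Dusp5 was chr19:53595789-53604769 (mm9) and its 15 pairs covered 315 kb. Reads ran from 8 to 36 with a median of 14, and scores from 5.28 to 12.1 with a median of 7.78. Upstream lay 13 of the 15 pairs. Of the fragments within 200 kb on either side 13 of 91 (14.3%) were paired with Dusp5, where in GM12878 71 of 99 (71.7%) were. Beside the gene, at 10.7 kb upstream and 11.4 kb downstream, were its highest read counts, 36 and 34. The highest score belonged to chr19:53487692-53492854, 110 kb upstream, on 16 reads. Smndc1 (134 kb upstream, 13 reads, 11.6) and Mxi1 (214 kb upstream, 15 reads, 8.97) were its only baited partners. The pair with Smndc1 scored 6.36 from the Dusp5 bait, and that with Mxi1 scored 5.26 from the Mxi1 bait. Between 75.1 and 134 kb upstream, from Smndc1 towards the gene, lay 10 of the 15 pairs. Of its unbaited fragments 12 of 13 lay outside protein-coding genes, beside 39.7% of all unbaited fragments of the mESC list.

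**Figure D3:**
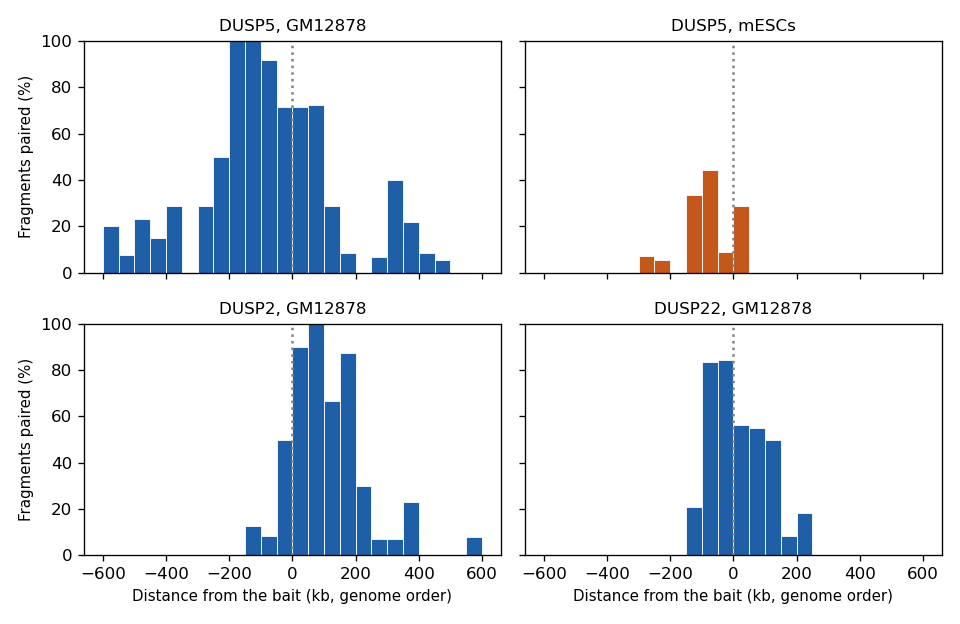
Percent of HindIII fragments (vertical axis) in each 50-kb window that were paired with the bait, against distance from the bait in kb in genome order (horizontal axis), for DUSP5 in GM12878 and mESCs and for DUSP2 and DUSP22 in GM12878. In both 50-kb windows between 200 and 100 kb upstream of DUSP5 the share was 100% in GM12878.

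The contact fragments of DUSP5 were searched for AGGGGGCG and AGGTGGCA on both strands, letters that form part of the motif of CTCF, a protein found at domain borders and loop anchors. Of the 10 strongest unbaited fragments 3 held such letters in GM12878, with 6 matches, and 2 of 10 did in mESCs, with 2 matches. Of windows of chromosome 10 as long as the strongest fragment 25.3% held either word, and of those as long as the fragment beside SMNDC1 39.5% did. For the strongest mouse fragment and the fragment beside Smndc1 the shares on chromosome 19 were 23.7 and 9.64%. Over all 10 unbaited fragments searched, the shares ran from 6.79 to 53.4% in human and from 5.29 to 47.5% in mouse. The highest share of each species belonged to its longest fragment, which held neither word. Whether the counts of 3 and 2 exceed these shares was not tested. The 4 stretches below show these letters in the strongest fragment and in the fragment beside SMNDC1 of each species, where the human fragments hold 3 further matches that are not shown. They were read from hg19 and mm9 on the strand of the match, with the searched letters in capitals. The first human stretch is chr10:112117938-112117997 (minus strand), in the strongest fragment, and the second is chr10:112071276-112071335 (plus strand), in the fragment beside SMNDC1. The first mouse stretch is chr19:53491226-53491285 (minus strand), in the strongest fragment of Dusp5, and the second is chr19:53469253-53469312 (plus strand), in the fragment beside Smndc1.
DUSP5 strongest fragment, human: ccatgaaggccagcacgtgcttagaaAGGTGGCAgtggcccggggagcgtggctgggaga
Dusp5 strongest fragment, mouse: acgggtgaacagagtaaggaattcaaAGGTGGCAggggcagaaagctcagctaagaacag
DUSP5 fragment beside SMNDC1, human: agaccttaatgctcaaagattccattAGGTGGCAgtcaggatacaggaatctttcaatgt
Dusp5 fragment beside Smndc1, mouse: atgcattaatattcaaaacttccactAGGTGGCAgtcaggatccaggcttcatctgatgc
The stretches beside SMNDC1 matched at 44 of 60 bases without gaps, and at 36 of the 52 bases outside the searched letters. The other 9 human and mouse combinations with the same letters matched at 18 to 23 of 60 bases, and the stretches of the strongest fragments at 22. The fragment with this stretch was joined to DUSP5 on 47 reads in GM12878 and on 13 reads in mESCs. The stretches were singled out after the contacts were known, and no binding was measured here.

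DUSP2 encodes PAC-1, a nuclear phosphatase induced in activated lymphocytes. Its bait was chr2:96804799-96811949 (hg19, gene on the minus strand). Upstream of the gene lay 41 of its 47 pairs and downstream 6, at a median of 120 kb and at most 598 kb. Reads ran from 8 to 53 and scores from 5.13 to 22.0. The strongest pair was with chr2:96833984-96846280, 31.8 kb upstream and outside protein-coding genes, which also had the most reads, 53. Next came the intron-only fragment 96927233-96929631 of TMEM127 (28 reads, 18.7) and the bait of AC021188.4 (42 reads, 18.3), 180 kb upstream. Within 200 kb of the bait 38 of 92 fragments (41.3%) were paired, with 16 of them in a single unbroken run from 96822871 to 96914795.

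The 8 baited partners of DUSP2 in GM12878 were STARD7, the CIAO1 and TMEM127 bait, SNRNP200, AC021188.4, ITPRIPL1, NCAPH, ARID5A and LMAN2L, the farthest. CIAO1, an assembly factor for cytosolic iron-sulphur proteins, was joined on 30 reads, with scores of 11.3 from the DUSP2 bait and 11.8 from its own. NCAPH, a subunit of condensin, was joined on 24 reads (7.42 and 8.49). Of the nearest promoters in the span ADRA2B had no pair with DUSP2, and the ASTL bait directly adjoins that of DUSP2, and the lists hold no call between adjacent fragments. Of their own fragments 19 of 26 for ADRA2B and 27 of 30 for ASTL were also paired with DUSP2. Of all fragments within 100 kb of the DUSP2 bait, 20 of 36 (55.6%) were paired with DUSP2. Whether the sharing exceeds that share was not tested. In mESCs Dusp2 had 8 pairs at a median of 152 kb, on 6 to 24 reads, with 4 on each side of the gene. The highest score was 9.84, with Gm10766 on 10 reads, followed by Mall (6 reads, 7.93) and Itpripl1 (8 reads, 6.79). Mall was also its most distant partner, at 393 kb, and the unbaited fragment 23.2 kb upstream had the most reads, 24. Ncaph (8 reads, 5.45) and Itpripl1 were joined to the gene in both cell types. They lay at 191 and 185 kb in GM12878 and at 199 and 190 kb in mESCs. In mESCs the pairs with Gm10766, Mall, Itpripl1 and Ncaph were called from the partner bait only, as were STARD7 and ITPRIPL1 in GM12878.

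DUSP4 encodes MKP-2, a nuclear phosphatase of ERK and JNK. It had similar numbers of pairs in both cell types, 25 and 22, and every pair of both lay upstream of the gene. No fragment within 100 kb was paired in either cell type. In GM12878 distances ran from 135 to 825 kb with a median of 374 kb, reads from 5 to 28 and scores from 5.07 to 10.4. The pair with the highest score and the most reads was with an intergenic fragment 169 kb away, and the next 2 scores were 10.3 at 370 kb (18 reads) and 9.35 at 357 kb (18 reads). All 21 unbaited fragments lay outside protein-coding genes. In mESCs distances ran from 286 to 704 kb with a median of 494 kb, reads from 4 to 16 and scores from 5.17 to 15.5. The highest score and the most reads belonged to chr8:35549630-35550960 (mm9), 326 kb upstream, in a run of 5 consecutive paired fragments.

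DUSP4 was joined to the same distant promoters in both species. LEPROTL1, a small membrane protein of the endosomal pathway, was joined on 7 reads with a score of 9.01 at 740 kb in GM12878, and on 10 reads with a score of 14.7 at 668 kb in mESCs. TMEM66, which encodes a regulator of store-operated calcium entry, was joined on 9 reads (5.07) at 727 kb in GM12878 and on 12 reads (11.7) at 653 kb in mESCs. Dctn6, a dynactin subunit, was the most distant partner in mESCs (704 kb, 8 reads, 10.1). In GM12878 the most distant partner, at 825 kb, was the bait of RP11-51J9.4 on 5 reads, a fragment that overlaps DCTN6 and LEPROTL1. The GM12878 pairs with LEPROTL1, TMEM66 and RP11-51J9.4 were called from the partner bait only. From the Dusp4 bait the mESC pairs with Leprotl1, Tmem66 and Dctn6 scored 8.08, 10.6 and 5.76.

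DUSP1 encodes MKP-1, an immediate-early nuclear phosphatase of p38, JNK and ERK. In GM12878 its bait, chr5:172196828-172204593, was joined to 4 fragments on 18 to 32 reads with scores of 5.08 to 6.17. The highest score was that of the bait of RPL26L1 and 2 noncoding genes, 182 kb upstream (30 reads), and the most reads were those of an intergenic fragment 55.8 kb downstream. The others overlapped exons of ERGIC1 and RPL26L1. In mESCs all 7 pairs of Dusp1 lay upstream, on 8 to 34 reads with scores of 5.17 to 8.48. Its baited partners were Gm8225, Ergic1, Atp6v0e, A930001N09Rik and, at 421 kb, Phf1. All of these were called from the partner bait only. Atp6v0e, a subunit of the vacuolar proton pump, had the highest score on 13 reads, and Ergic1, which encodes a cargo protein of the early secretory pathway, followed Gm8225 with 33 reads and 7.25. Fragments that overlap ERGIC1 were thus joined to DUSP1 in both lists.

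The 250 bases before a start of each gene were searched for the words TGACGTCA (cyclic AMP response element), TGACG (part of it, which overlaps it), TGANTCA (AP-1), CCGGAAGT (ETS factors), CCATATTAG (serum response element), GGGACTTTC (NF-kB) and TTCNNNGAA (STAT factors) on both strands. For GM12878 the promoters came from RefSeq (GRCh38.p14), where 5 of the 7 genes with pairs matched (not DUSP4 or DUSP5), and were placed on hg19 by exact match. For mESCs they were read from mm9 before the annotated start of all 6 genes. RefSeq and the annotation of the contacts place some starts differently, so that the windows of human DUSP10 and DUSP22 lay within the annotated genes. The window of human DUSP10 lay outside its bait fragment and that of mouse Dusp4 lay partly outside. TGACGTCA occurred before DUSP1 in both species (125 bases upstream in human, 96 in mouse) and before no other of these promoters, beside 1.73% of 27305 human and 1.91% of 22367 mouse promoters. TGACG occurred before DUSP1 alone in GM12878 and before Dusp1, Dusp4, Dusp5 and Dusp16 in mESCs, beside 21.1 and 19.4% of all promoters. The other 5 words had no match in these windows, which says nothing of the factors. The DUSP1 promoters are shown for the shared element, with matches in capitals, as chr5:172198199-172198448 (hg19, minus strand) and chr17:26645465-26645714 (mm9, minus strand).
DUSP1 promoter, human: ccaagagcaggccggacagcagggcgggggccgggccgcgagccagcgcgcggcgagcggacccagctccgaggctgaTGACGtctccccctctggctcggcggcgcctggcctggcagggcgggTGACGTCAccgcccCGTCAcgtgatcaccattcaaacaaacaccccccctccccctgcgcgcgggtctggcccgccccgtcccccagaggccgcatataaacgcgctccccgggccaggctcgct
Dusp1 promoter, mouse: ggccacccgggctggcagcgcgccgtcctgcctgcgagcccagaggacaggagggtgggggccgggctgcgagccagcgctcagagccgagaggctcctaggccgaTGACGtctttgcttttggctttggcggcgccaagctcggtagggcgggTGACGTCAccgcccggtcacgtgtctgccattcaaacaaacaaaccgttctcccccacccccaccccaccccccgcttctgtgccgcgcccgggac

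DUSP6, the cytoplasmic ERK phosphatase MKP-3, had no listed pair in GM12878. In mESCs its bait chr10:98721199-98733218 (mm9) was joined to 2 unbaited fragments downstream of the gene. They lay 313 kb away on 10 reads, with a score of 10.1, and 349 kb away on 8 reads, with a score of 7.65. Both were outside protein-coding genes.

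DUSP10 (MKP-5) was listed in GM12878 only, with 6 pairs on 7 to 30 reads. The strongest was with an intergenic fragment 197 kb upstream (20 reads, 10.4), followed by fragments 195 kb downstream (16 reads, 7.03) and 101 kb upstream (22 reads, 7.02). The baits of the small RNA gene RNU6-403P, on 30 reads, and of AC092765.1, on 12 reads, were its baited partners. Both were called from the partner bait only. The longest pair of DUSP10, 899 kb on 7 reads, ended in MIA3, which encodes a cargo receptor for collagen export.

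DUSP16 (MKP-7) had 14 pairs in GM12878, from 73.0 to 218 kb, on 12 to 29 reads with scores from 5.21 to 13.7. The strongest was with the bait of LOH12CR1, a subunit of the lysosome-positioning complex BORC, 208 kb away on 18 reads. This pair scored 5.56 from the DUSP16 bait and 13.7 from that of LOH12CR1. The next was an intron fragment of LOH12CR1 (listed as BORCS5 in the annotation) on 21 reads. Its score of 13.6 was the highest from the DUSP16 bait. The third was a further intron fragment of LOH12CR1 (16 reads, 7.86). The most reads, 29, joined DUSP16 to CDKN1B, which encodes the cyclin-dependent kinase inhibitor p27, with a score of 6.09 at 149 kb. APOLD1 and GPR19 were its other coding partners. The longest pair, at 218 kb, ended in MANSC1. In mESCs all 3 pairs of Dusp16 were bait-to-bait, with Loh12cr1 (16 reads, 11.0, 150 kb), Crebl2 (19 reads, 7.59, 40.7 kb) and Cdkn1b (6 reads, 5.52, 124 kb). From the Dusp16 bait the pair with Crebl2 scored 5.55, and that with Cdkn1b was called from the partner bait only.

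DUSP22 was listed in GM12878 only and had the shortest median distance of the group there, 62.5 kb. Its bait, chr6:290446-297152, was joined to 52 fragments between 169262 and 518068, a span of 349 kb near the short-arm end of the chromosome. Reads were the highest of the group, from 13 to 91 with a median of 38, and scores ran from 5.14 to 38.6 with a median of 10.9. Under 50 kb its 20 pairs had a median of 66.5 reads, where all GM12878 pairs had 36. The pairs were spread evenly, 25 upstream and 27 downstream, and 41 of 61 fragments (67.2%) within 100 kb were paired. The strongest, chr6:230419-232603, lay 62.3 kb upstream on 78 reads, the next overlapped an exon of DUSP22 itself (77 reads, 30.1), and the third lay beside the first (59 reads, 27.8). The most reads, 91, were 11.9 kb upstream. The same bait also had 50 trans-chromosomal calls (between chromosomes), all to chromosome 16 and described further below. Their bearing on its cis reads was not tested.

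IRF4, which encodes a transcription factor of B cell activation and plasma cell differentiation, was the main baited partner of DUSP22. The pair was 100.0 kb long and held 72 reads with a score of 17.5, where the nearest 3 paired fragments on each side of the IRF4 bait held 19 to 27 reads. Both ends of a bait-to-bait pair are captured, and the part of this in its reads was not tested. The pair was called from the DUSP22 bait only. Of the 45 other fragments joined to IRF4 33 (73.3%) were joined to DUSP22 as well, which was 63.5% of the fragments of DUSP22. Of all fragments within 100 kb of the DUSP22 bait, 41 of 61 (67.2%) were paired with DUSP22. Within 200 kb it was 50 of 117 (42.7%). Whether the sharing exceeds these shares was not tested. The other baited partner was the noncoding RP3-416J7.5, 98.2 kb upstream on 39 reads. The longest pair, 219 kb on 13 reads, ended in an intron of EXOC2, a subunit of the exocyst.

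**Figure D4:**
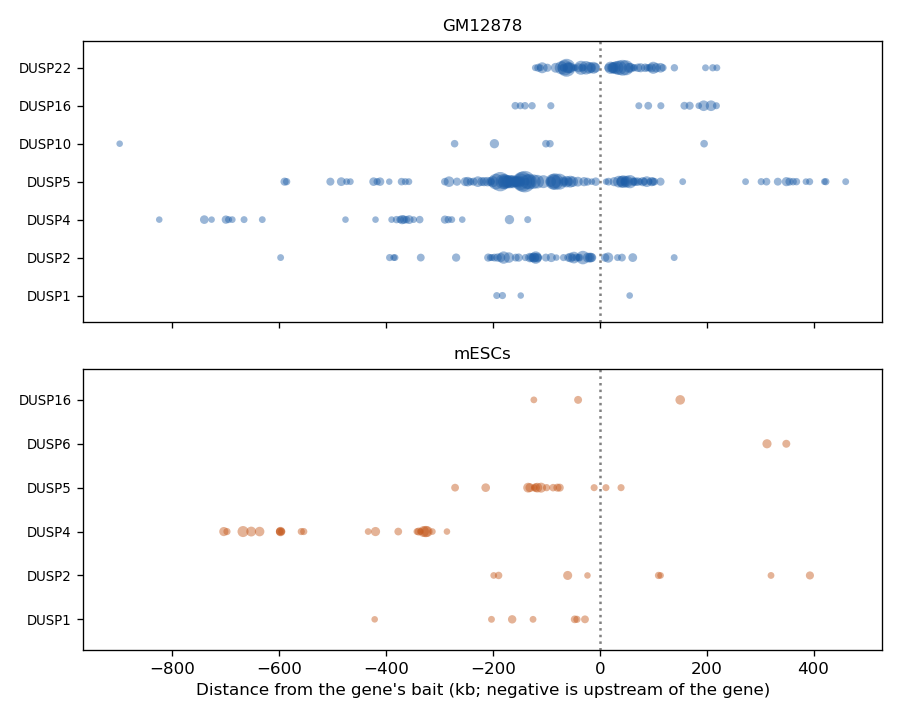
Position of every cis pair of each gene as distance from its bait in kb (horizontal axis, negative upstream of the gene), in GM12878 (upper panel) and mESCs (lower panel); the area of a circle is in proportion to the CHiCAGO score. All pairs of DUSP4 lie upstream in both cell types, and those of DUSP22 stay within 219 kb.

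Over all members the median distance was 132 kb in GM12878 (binomial 95% interval of the median 114 to 153 kb), where the whole list had 173 kb, and 214 kb in mESCs (125 to 330 kb), where the whole list had 138 kb. The mESC median of the members was 123 kb over pairs of at least 10 reads and 328 kb over pairs with a score of at least 10. Pairs of a gene share its bait and neighbouring fragments, so these intervals are too narrow. They test no difference from the whole list. DUSP5 supplied 111 of the 259 pairs in GM12878 and Dusp4 22 of the 57 in mESCs. All pairs of the group were shorter than 1 Mb.

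Promoter partners could be followed across species where both symbols were listed in both cell types. Of the partner symbols of the members in GM12878 14 met this condition, and 8 of them were joined to the same member in mESCs, beside 35.8% of 10025 such promoter pairs in the whole GM12878 list. From the side of mESCs it was 8 of 12, beside 31.9% of 11237. The 8 were MXI1 and SMNDC1 for DUSP5, LEPROTL1 and TMEM66 for DUSP4, CDKN1B and LOH12CR1 for DUSP16, and ITPRIPL1 and NCAPH for DUSP2. Called from the partner bait only were LEPROTL1 and TMEM66 in GM12878, Cdkn1b and Ncaph in mESCs, and ITPRIPL1 in both. Partners listed in both cell types but joined in GM12878 only were ADD3 and SHOC2 for DUSP5, ARID5A, CIAO1 and LMAN2L for DUSP2, and APOLD1 for DUSP16. Joined in mESCs only were Phf1 for Dusp1, Fahd2a and Mal for Dusp2, and Crebl2 for Dusp16. Partners that share a bait or neighbour each other are not independent, and the 8 shared partners belong to 4 of the genes.

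The Hi-C dataset of mESCs gave a readout apart from the choice of genes. None of the 57 mESC pairs lay within a 25-kb bin pair of FDR under 0.05, where 11.2% of all 90710 mESC pairs under 1 Mb did. The Wilson interval of the share was 0 to 6.31%, and 3 pairs of 57 would have been 5.26%. Pairs that fall in the same bins are not independent, so this interval is also too narrow. The pairs of the members were longer, at a median of 214 kb beside 138 kb over all mESC cis pairs. The shares were not matched for distance or reads. Among bin pairs listed at any FDR, 16 of the 57 pairs (28.1%, Wilson interval 18.1 to 40.8%) were found, beside 29.2% of all pairs. Of these 16, Dusp5 supplied 8 of its 15 pairs and Dusp4 supplied 4 of its 22, and no pair of Dusp2 was found. The bin pair with the lowest FDR, 0.0836, joined Dusp5 to the stretch that holds its strongest capture fragment, with 19 Hi-C read pairs where 5.72 were expected, and it held 4 of the capture pairs. For Dusp4 the lowest FDR was 0.230, with 8 read pairs where 0.969 were expected, beside the Tmem66 promoter. For Dusp1 and Ergic1 the Hi-C data held 36 read pairs where 20.2 were expected, at an FDR of 1.

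**Figure D5:**
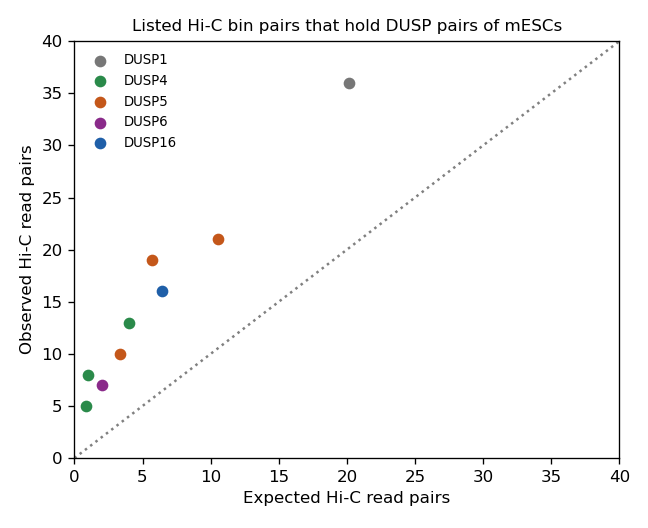
Observed Hi-C read pairs (vertical axis) against expected read pairs (horizontal axis) for each listed 25-kb bin pair that held a capture pair of Dusp1, Dusp4, Dusp5, Dusp6 or Dusp16 in mESCs; the dotted line marks equality. The list holds only bin pairs above expectation, so all points lie above the line, and none passed an FDR of 0.05.

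The other genes of the pathway, 46 kinases, upstream activators, SPRY and SPRED inhibitors and further dual specificity phosphatases, give the setting. In GM12878 39 of them were listed with a median of 4 pairs, and 7 had at least 10, beside 23.5% of all listed genes. In mESCs 32 were listed with a median of 8 pairs, and 13 had at least 10, beside 22.6%. DUSP7, with 26 pairs, and DUSP23 and MAP2K1, with 17 each, were highest in GM12878. Map2k7 (36 pairs), which encodes a kinase that activates JNK, and Mapk12 (32 pairs), which encodes p38 gamma, were highest in mESCs. Dusp3, Grb2 and Spry4 followed with 19 each. Among the 19 matched genes of this list, 2 had at least 2-fold more pairs in GM12878, beside 34.2% of all matched genes. In mESCs 11 had at least 2-fold more, beside 35.6%. Of the 5 matched members, 3 and 0 did so. The difference between the lists was not tested.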

How the data were processed

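Promoter Capture Hi-C reads of 3 GM12878 and 2 mESC biological replicates were mapped by the authors with HiCUP and Bowtie 1.1.0 to hg19 and mm9, filtered and deduplicated, and CHiCAGO called fragments joined to baits over all replicates of a cell type together. The deposited lists give for each call a joint read count (replicates weighted by size factors, combined and rounded) and a CHiCAGO score of at least 5, with no value per replicate. The authors called mESC Hi-C bin pairs with HOMER 4.7, and the deposited table of 25-kb bins gives observed read-pair counts, the expected read pairs (a signal) and a p-value adjusted as FDR. The 1-Mb Hi-C table was not used.

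Calls were read as lines of bait and other end. Symbols were split at semicolons, commas and vertical bars and compared in capitals, and a transcript suffix was removed. A call from both ends became 1 pair with its higher score, and distances were taken between fragment midpoints. Symbols on more than 1 chromosome (82 in GM12878, 1 in mESCs) were left out of counts over genes. All listed fragments on the members' chromosomes were HindIII fragments of GRCh37 and NCBIM37, whose GENCODE annotation (v44 lifted to GRCh37, M1) gave genes and exons. A capture pair was placed in a Hi-C bin pair when each midpoint lay in 1 of its bins.

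The named partners were those of each member's 3 highest-scoring pairs, its longest pair and its pair with most reads, every baited partner of DUSP5 in GM12878 and its 10 highest-scoring unbaited fragments. Further partners were chosen after their values were seen. The members and lists were chosen with earlier results of these data known. With 1 joint list per cell type no test between cell types was possible. Intervals of shares cover counting error only. The counting steps recovered all 9 known answers of a made-up list. Python 3.11.15, NumPy 2.4.6, SciPy 1.17.1 and matplotlib 3.10.9 were used.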

Additional observations from a re-analysis of the deposited data

Results flagged for a closer look

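Outside the cis pairs, DUSP22 had 50 trans-chromosomal calls in GM12878, which no comparison above uses. They made up 17.4% of the 288 trans-chromosomal calls of that list, and no other member had any in either list. All 50 ended on chromosome 16, between 32323372 and 33613996 (hg19), on 3 to 18 reads with a median of 5 and with scores from 6.43 to 90.3. Of the baits in the list 2 had more trans-chromosomal calls, the bait of HYDIN and SNORD112 with 71 and that of DHX32 and FANK1 with 54.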

How the results depend on the processing

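Of 40 alternative values 29 stayed within the limits set for them. The limits were a count within 1.5 times, a median or share within its interval, and an unchanged span. Among the 29 are values from a browser version of the same lists. It repeats the same calls, so those values say nothing of stability. The mESC median distance was counted as within its interval at 300 and 328 kb, because that interval runs from 125 to 330 kb. With scores of at least 10 the members kept 99 pairs in GM12878 and 14 in mESCs, DUSP5 kept 53 pairs over a span of 638 kb, and the median distance in GM12878 was 91.6 kb. With at least 10 reads 36 pairs remained in mESCs at a median of 123 kb, and the DUSP5 span was 928 kb. It was 899.9 kb without the distal 5% of pairs on each side. Without DUSP5, an alternative chosen after seeing the data, 148 pairs remained in GM12878. Over all listed Hi-C bin pairs the share of mESC pairs was 28.1%. With these settings a narrower or wider set was counted, and the cause of the shifts was not tested. Splitting symbols at semicolons only, also chosen after seeing the data, left 52 pairs in mESCs. The count of 3 genes with at least 2-fold more pairs in either cell type ran from 2 to 4. No paired analysis was possible because the replicates of each cell type were called jointly, and for the same reason no replicate could be left out. The depth of single libraries is not in the files used here, and pairs under the score of 5 are not in the lists.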
